A study of Mus musculus with 35 samples.

Results

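The genes described here are 10 transcripts of the hypoxia and glycolysis response of mouse embryonic fibroblasts (MEFs): Egln3, Egln1, Vegfa, Slc2a1, Hk2, Pgk1, Ldha, Pdk1, Bnip3 and Ankrd37. They were selected on a measured value, because Egln3 was lower in MT486-Cre than in EV-Cre, and the other 9 genes were added as its companions in the same pathway. They are 10 of the 24421 genes listed by symbol in each count table, and all 10 passed the filter on low counts in both the populations and the stable clones. Because the Egln3 values of EV-Cre and MT486-Cre chose the set, Egln3 is given without a test in every comparison that uses either group, and the comparison of MT486-Cre with EV-Cre, also as part of an interaction, is given without a test for all 10 genes.

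RNA-seq was performed on immortalized Nelfb flox/- MEFs, which carry 1 null and 1 floxed allele of Nelfb, the gene of the B subunit of the negative elongation factor NELF. The populations expressed an empty lentiviral vector (EV), wild-type NELFB (WT), the mutants MT194 or MT486, or both mutations together (DMT), and were harvested 7 days after an adenovirus with Cre and GFP (Ad-Cre) or with GFP alone (Ad-GFP), which gave 10 groups of 2 libraries each. The stable clones were single colonies picked after Ad-Cre, 3 each with WT, MT194 or MT486 in pLenti and 3 each with WT(N48) or Δ-C60 in pBabe, so that these last 2 groups differ from the others in their vector as well. As the study describes its mutants, MT194 does not bind NELFA and NELFC and MT486 does not bind NELFE, while Δ-C60 lacks the C-terminal end. The pLenti constructs were driven by a CMV promoter, and each clone is 1 colony. Populations had 17969149 to 29080007 reads on genes per library, and clones had between 18413284 and 27816723. No source names separate animals, so p-values measure the spread between cultures or colonies of these lines.

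In well-oxygenated cells, prolyl hydroxylases of the EGLN family mark the α subunits of the hypoxia-inducible factors (HIF) for degradation through the VHL ubiquitin ligase. When oxygen is short the marking stops, HIF pairs with ARNT, binds DNA at the letters ACGTG or GCGTG, and raises genes for glucose uptake, glycolysis, blood vessel growth and the removal of mitochondria. Egln3 and Egln1 are targets as well as brakes of this pathway, so that their transcripts are commonly read as a record of HIF activity, although other signals also reach these genes.

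Positions are those of GRCm38, the assembly that mm10 names. By the GENCODE annotation Egln3 lies on chromosome 12 from 54178981 to 54203860 on the minus strand, with 2662 exonic bases, and Ankrd37 on chromosome 8 from 45996902 to 46005707 on the minus strand, with 1539. Pdk1 spans 71873224 to 71903858 of chromosome 2, Slc2a1 119108711 to 119137983 of chromosome 4, Hk2 82725025 to 82774454 of chromosome 6, Ldha 46841475 to 46855627 of chromosome 7, and Pgk1 106187100 to 106203699 of the X chromosome. Bnip3 spans 138890836 to 138909519 of chromosome 7, Egln1 124908587 to 124949324 of chromosome 8, and Vegfa 46016993 to 46032369 of chromosome 17. Ankrd37 shares 349 exonic bases with Lrp2bp and 57 with Ufsp2 on the other strand, Bnip3 shares 504 with the antisense gene Gm45507 and Slc2a1 105 with Gm12868; the libraries were stranded, but the strand setting of the counting is not given in the sources used here, so these 3 genes are uncertain to that extent. Pgk1 and Ldha each have 2 pseudogenes named after them, and alignments with a mapping quality under 30 were left out, so reads that fit a copy as well would be missing from their counts.

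RefSeq promoter windows of the same assembly held ACGTG or GCGTG on either strand in the 250 bases before a start for all 10 genes, and for 11 of their 13 windows, against 38.6% of all 32851 windows. The letters ACGTG alone stood in 9 of the 13 windows, against 16.6% of all windows. The genes were named as HIF targets when they were chosen, so this share is a description of the list. Stretches of 120 bases before the start are shown for Egln3, which chose the set, for Ankrd37, the gene called in most comparisons, and for Pdk1, Pgk1 and Bnip3, whose promoters differ in the number of matches. They are given 5′ to 3′ on the gene's own strand, hold no annotated exon, and carry each match in capitals (CACGT and CACGC are the same letters read on the other strand). The Ankrd37 stretch lies inside the GENCODE span of that gene, before a RefSeq start within it.
Egln3, chr12:54204005-54204124, minus strand: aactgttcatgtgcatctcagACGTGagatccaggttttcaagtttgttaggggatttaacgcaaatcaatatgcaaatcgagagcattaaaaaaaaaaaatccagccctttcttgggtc
Ankrd37, chr8:45999972-46000091, minus strand: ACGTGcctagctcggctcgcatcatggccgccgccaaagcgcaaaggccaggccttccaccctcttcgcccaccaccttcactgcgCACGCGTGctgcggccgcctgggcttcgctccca
Pdk1, chr2:71873086-71873205, plus strand: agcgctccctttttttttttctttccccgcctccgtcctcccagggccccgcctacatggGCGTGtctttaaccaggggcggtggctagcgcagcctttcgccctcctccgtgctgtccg
Pgk1, chrX:106186899-106187018, plus strand: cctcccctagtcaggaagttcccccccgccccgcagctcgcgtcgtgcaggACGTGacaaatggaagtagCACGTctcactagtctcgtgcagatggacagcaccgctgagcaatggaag
Bnip3, chr7:138909523-138909642, minus strand: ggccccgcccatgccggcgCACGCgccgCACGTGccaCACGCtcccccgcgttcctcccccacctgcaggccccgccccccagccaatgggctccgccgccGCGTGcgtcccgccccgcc

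Nelfb RNA checked the labels first. It was 7.97 and 5.46 CPM (CPM are counts scaled to library size after TMM normalization, given for replicates 1 and 2) in EV-Cre against 46.1 and 39.5 in EV-GFP, and lay between 60.5 and 208 CPM in the Ad-Cre populations that carry a NELFB construct. In DMT-Cre, Nelfb was 169 and 208 CPM. Among the clones, the library labelled WT clone 1 had 10.3 CPM and that labelled WT clone 3 had 15.5 CPM, far under the 109 CPM of WT clone 2 and against their label, so directions relative to the WT clones rest on libraries of uncertain identity. The libraries of MT486 clones 1 and 2 differed from each other by a chi-square of 5.34 per degree of freedom over genes, above sampling noise but well under the 34.4 of the next closest pair of clones, and they were counted as 2. Of 11 fibroblast markers, Fn1 was the most abundant and Thy1 stayed under 1 CPM in all 35 libraries. The summed level of the fibroblast list ran from 7595 to 50280 CPM, that of 5 epithelial markers from 0.12 to 2.07 CPM with Cldn3 at 0 throughout, that of 5 endothelial markers from 0.175 to 5.04 CPM, and that of 6 leukocyte markers from 0.871 to 6.03 CPM, led by Cd68. Whether fewer cells of a kind or less RNA per cell gives a lower value cannot be told apart in these bulk libraries.

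Ad-Cre raised most of the 10 genes where the construct was EV or DMT. By the test it raised 1 where the construct was MT194, and none passed where it was MT486 or WT. Of all genes 5.84%, 4.58%, 1.88% and 1.14% were called higher in EV, DMT, MT194 and MT486. In WT 0.0217% were called either way, so the lack of a call there says nothing particular of the members. With the replicate number blocked, 5 of 10 rose in MT194 and 5 of 9 in MT486, where 7.08% and 5.55% of all genes were called higher. Still none was called in WT, where 3.09% of all genes were called either way, and Ldha missed only the threshold on size there. By mean, EV-Cre was the highest and DMT-Cre the next of the 10 population groups for all 10 genes, a pattern that for Egln3 is part of the choice. The means of MT194-Cre and MT486-Cre both lay between those of WT-Cre and DMT-Cre for 5 of the 10 (Egln1, Vegfa, Slc2a1, Ldha and Ankrd37). The plot of the population values shows this gene by gene.

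**Figure D1:**
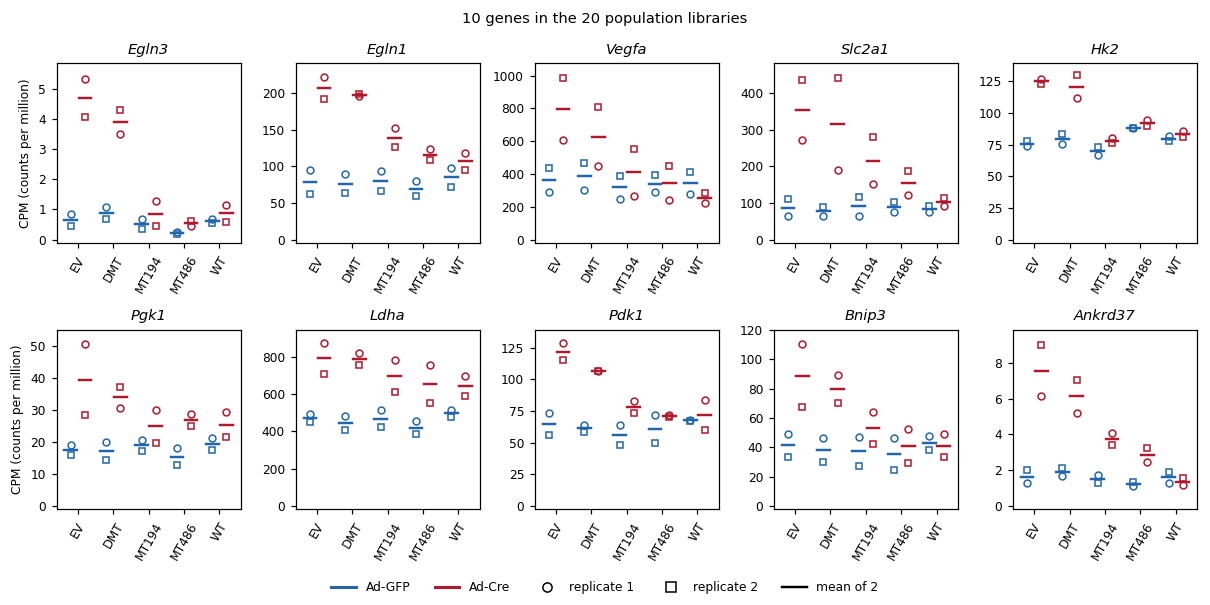
Level of each of the 10 genes in CPM (vertical axes, linear, from 0) in the 20 population libraries, by construct, with Ad-GFP in blue and Ad-Cre in red, circles for replicate 1, squares for replicate 2 and a bar for the mean of 2. For Egln3 the EV-Cre and DMT-Cre libraries, at 3.52 to 5.32 CPM, stand above the other 16, which reach at most 1.29 CPM.

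Egln3, a prolyl hydroxylase that HIF itself induces, had 5.32 and 4.05 CPM in EV-Cre (118 and 86 reads) and 0.836 and 0.439 CPM in EV-GFP. In MT486-Cre it had 0.448 and 0.621 CPM, and in MT486-GFP 0.247 and 0.171 CPM. In DMT-Cre it had 3.52 and 4.30 CPM against 1.09 and 0.684 CPM in DMT-GFP. The libraries of EV-Cre and DMT-Cre were thus high and all others low, with MT194-Cre at 1.29 and 0.433 CPM and WT-Cre at 1.16 and 0.572 CPM. By mean the order was EV-Cre, DMT-Cre, DMT-GFP, WT-Cre, MT194-Cre, EV-GFP, WT-GFP, MT486-Cre, MT194-GFP and MT486-GFP, and in it neighbours lay within their summed SD except at the steps from DMT-Cre to DMT-GFP and from MT194-GFP to MT486-GFP. The contrast that chose the gene, MT486-Cre against EV-Cre, gave a log2 fold change of -3.12, stated as a description.

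Only the groups outside the choice allow a test of Egln3. With DMT, Ad-Cre raised it by a log2 fold change of 2.16 (SE 0.46, adjusted p = 0.00996, n = 2 against 2) in both replicates; here and below the p comes from the quasi-likelihood test of edgeR, adjusted by Benjamini and Hochberg's method over the 13805 genes tested, and a gene was called where it was under 0.05 and the log2 fold change exceeded 0.5 in size. With MT194 the change was 0.78 (SE 0.54, adjusted p = 0.566 by the edgeR fit) and with WT 0.53 (SE 0.53, adjusted p = 1), neither beyond the spread between replicates. The DMT call was lost when DMT-Cre replicate 2 was left out or DMT-GFP replicate 2 was, and over the alternatives its adjusted p by the fits across all genes ran from 5.51e-05 to 0.124.

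Egln1, the main oxygen sensor of most cells, had 222 and 193 CPM in EV-Cre against 94.8 and 62.8 CPM in EV-GFP. With DMT it had 197 and 199 CPM after Ad-Cre and 89.8 and 63.5 CPM after Ad-GFP. With MT194 the values were 152 and 126 CPM against 94.2 and 66.4 CPM. Every Ad-Cre library of these 3 constructs lay above its Ad-GFP libraries. With MT486 the values were 124 and 108 CPM against 80.1 and 59.4 CPM, again without overlap, while with WT the Ad-Cre libraries, at 119 and 94.8 CPM, overlapped with the Ad-GFP libraries, at 97.9 and 72.0 CPM. Compared within each replicate number, WT-Cre was above WT-GFP by 0.28 and 0.40 on the log2 scale. The log2 fold change was 1.39 (SE 0.26, adjusted p = 0.00405, edgeR) in EV and 1.37 (SE 0.26, adjusted p = 0.00518, edgeR) in DMT.

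Vegfa, which encodes the growth factor that draws new vessels, differed between the 2 experiments as well as with the virus. EV-Cre had 607 and 987 CPM and EV-GFP 290 and 436 CPM. DMT-Cre had 448 and 810 CPM and DMT-GFP 305 and 469 CPM, which overlap. In all 10 groups replicate 2 was above replicate 1. WT-Cre, at 220 and 282 CPM, was the lowest group of the 10. The log2 fold change of Vegfa with Ad-Cre in EV, 1.13 (SE 0.46), did not pass the test across all genes by edgeR (adjusted p = 0.132), but did with a block for the replicate number (adjusted p = 4.1e-06).

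Slc2a1, the glucose transporter GLUT1, showed the widest rise of the uptake and glycolysis genes. EV-Cre had 272 and 436 CPM and EV-GFP 64.9 and 109.9 CPM. DMT-Cre had 190 and 440 CPM and DMT-GFP 65.1 and 88.2 CPM. MT194-Cre had 151 and 279 CPM against 65.6 and 114.7 CPM. Both Ad-Cre libraries exceeded both Ad-GFP libraries with EV, DMT, MT194 and MT486, and with WT they overlapped, at 90.3 and 113.2 CPM against 74.6 and 90.5 CPM. Within each replicate number WT-Cre was above WT-GFP, by 0.28 and 0.32 on the log2 scale. The log2 fold change was 2.02 (SE 0.46, adjusted p = 0.0124, edgeR) in EV and 2.04 (SE 0.46, adjusted p = 0.0133, edgeR) in DMT.

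Hk2, the inducible hexokinase that traps glucose in the cell, had the smallest standard error of the 10. EV-Cre had 127 and 123 CPM and EV-GFP 73.7 and 77.8 CPM. DMT-Cre had 112 and 130 CPM and DMT-GFP 75.6 and 83.0 CPM. The other 6 groups lay between 66.6 and 94.0 CPM. The rise was modest, with a log2 fold change of 0.72 (SE 0.11, adjusted p = 0.00119, edgeR) in EV and 0.61 (SE 0.11, adjusted p = 0.0042, edgeR) in DMT, and the corresponding changes in MT194, MT486 and WT were 0.16, 0.06 and 0.07.

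Pgk1 and Ldha encode an ATP-yielding kinase of glycolysis and the subunit of lactate dehydrogenase that favours lactate, and both have pseudogenes whose part in their levels was not tested. Pgk1 had 50.5 and 28.3 CPM in EV-Cre against 19.1 and 16.0 CPM in EV-GFP, with a log2 fold change of 1.17 (SE 0.30, adjusted p = 0.0226, edgeR). In DMT its change was 0.98 (SE 0.30), and the adjusted p of 0.0541 by the edgeR fit missed the threshold. Ldha had 875 and 709 CPM in EV-Cre against 494 and 450.5 CPM in EV-GFP, a log2 fold change of 0.75 (SE 0.22, adjusted p = 0.0427, edgeR), and 819 and 757 CPM in DMT-Cre against 482 and 405 CPM in DMT-GFP, a change of 0.83 (SE 0.22, adjusted p = 0.0308, edgeR). Leaving out any 1 of the 4 libraries ended the call of Ldha in EV and in DMT, and that of Pgk1 in EV was kept only without EV-Cre replicate 2. With WT, Ldha was 695 and 591 CPM after Ad-Cre and 517 and 477 CPM after Ad-GFP, without overlap, and the log2 fold change was 0.37 (SE 0.22, adjusted p = 0.895, edgeR).

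Pdk1, a mitochondrial kinase that inhibits pyruvate dehydrogenase and so limits the conversion of pyruvate to acetyl-CoA, had 129 and 115 CPM in EV-Cre against 73.5 and 56.3 CPM in EV-GFP. In DMT-Cre it had 107 CPM in both replicates against 64.3 and 58.6 CPM in DMT-GFP. The log2 fold change was 0.91 (SE 0.20, adjusted p = 0.0115, edgeR) in EV and 0.80 (SE 0.20, adjusted p = 0.0247, edgeR) in DMT, and leaving out any 1 of the 4 libraries of DMT ended the second call. Bnip3, a receptor for the removal of mitochondria, had 110 and 67.3 CPM in EV-Cre against 49.4 and 33.4 CPM in EV-GFP, and replicate 1 exceeded replicate 2 in all 10 groups. Its log2 fold changes of 1.10 (SE 0.41) in EV and 1.06 (SE 0.41) in DMT missed the threshold by the edgeR fit, with adjusted p of 0.102 and 0.127, and passed it once the replicate number was blocked, with adjusted p of 1.57e-06 and 1.8e-06.

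Ankrd37, an ankyrin repeat protein with 3 matches in the promoter stretch above, was called in more comparisons than any other of the 10. EV-Cre had 6.13 and 8.99 CPM against 1.28 and 2.00 CPM in EV-GFP. DMT-Cre had 5.20 and 7.06 CPM against 1.66 and 2.12 CPM. MT194-Cre had 4.09 and 3.42 CPM against 1.72 and 1.29 CPM. These groups stood fully apart, and so did MT486-Cre at 2.46 and 3.24 CPM against 1.14 and 1.37 CPM, whereas WT-Cre at 1.16 and 1.57 CPM overlapped with WT-GFP at 1.29 and 1.93 CPM. The log2 fold change was 2.20 (SE 0.31, adjusted p = 0.000655, edgeR) in EV, 1.68 (SE 0.30, adjusted p = 0.00379, edgeR) in DMT, 1.32 (SE 0.32, adjusted p = 0.0327, edgeR) in MT194, 1.19 (SE 0.33, adjusted p = 0.0832, edgeR) in MT486 and -0.25 (SE 0.33, adjusted p = 1, edgeR) in WT. In EV and DMT the call held in each of the 11 alternatives, with adjusted p up to 0.0452 and 0.04, and in MT194 it was lost when any 1 of the 4 libraries was left out.

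Counted together, 7 of the 9 genes without Egln3 rose with Ad-Cre in EV, where 5.84% of all genes tested were called higher and 5.94% lower, and their median log2 fold change was 1.13 against 0.00 over all genes. With only the EV groups in the fit Ankrd37 alone of the 9 was called, where 107 of 13269 genes were called higher and 1.8% either way. Hk2 and Ankrd37 kept the call whichever of the 4 EV libraries was left out, and Egln1 lost it without EV-GFP replicate 2. Those fits left 1 library in a group and called fewer of all genes as well. Leaving out EV-Cre replicate 1 ended the calls of Pgk1 and Pdk1, leaving out EV-GFP replicate 2 ended them too, and leaving out EV-Cre replicate 2 or EV-GFP replicate 1 ended that of Slc2a1. In DMT 7 of 10 rose, where 4.58% of genes were called higher and 5.34% lower, with a median of 1.02 against 0.00. Only Egln1 and Ankrd37 kept the call without DMT-Cre replicate 2, and only Hk2 and Ankrd37 without DMT-GFP replicate 2. Those fits too left 1 library in a group and called fewer of all genes. With only the DMT groups in the fit 4 of 10 were called (Egln3, Egln1, Slc2a1 and Ankrd37), where 241 of 13486 genes were called higher and 3.63% either way. In MT194 only Ankrd37 of 10 rose, where 1.88% were called higher and 2.33% lower, and the median was 0.54. In MT486 0 of 9 were called, where 1.14% were called higher and 1.28% lower, and the median was 0.64. In edgeR 4 of the 9 had an unadjusted p under 0.05, as had 2002 of all 13805 genes. DESeq2 called 2 of the 9, where it called 4.95% of all genes. In WT 0 of 10 were called, where 0.0217% of genes were called either way, and the median was 0.19. There 0 of 10 had an unadjusted p under 0.05 in edgeR, against 859 of 13805 genes. DESeq2 called 0 of 10, where it called 0.427% of all genes. None of the 10 fell in any of the 5 constructs, and all were above 0 on the log2 scale in EV, DMT, MT194 and MT486 in the fit without a block.

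**Figure D2:**
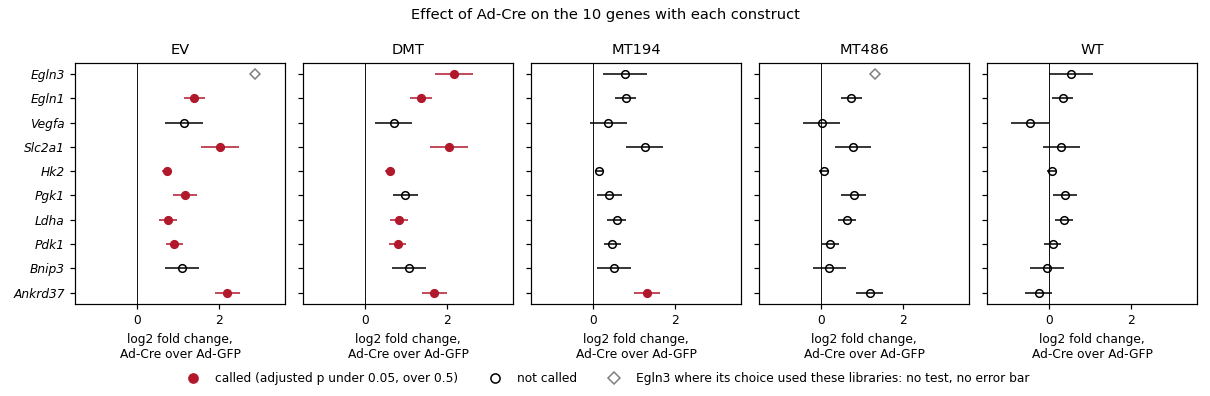
Log2 fold change of Ad-Cre over Ad-GFP (horizontal axes) for the 10 genes with each construct, with bars of 1 standard error from the edgeR fit, filled where called and open where not. The points of EV and DMT lie between 0.61 and 2.87, those of WT between -0.46 and 0.53, and the grey diamonds without bars are the Egln3 values that carry no test.

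The 2 replicates were independent experiments, and same-numbered libraries deviated together, so the fit was repeated with the experiment as a block. It called 9 of 9 genes higher in EV, where 12.4% of all genes were then called higher, and 10 of 10 in DMT, where 11.2% were. In MT194 it called 5 of 10 higher (Egln1, Slc2a1, Ldha, Bnip3 and Ankrd37), where 7.08% of genes were, and in MT486 5 of 9 (Egln1, Slc2a1, Pgk1, Ldha and Ankrd37), where 5.55% were. In MT486 the blocked log2 fold change was 0.75 for Egln1 and 1.18 for Ankrd37, with adjusted p of 0.000189 and 0.00467 by edgeR. In WT it called none of the 10, where 3.09% of genes were called either way, so this count says nothing particular of the members.

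Wild-type NELFB was then compared with the empty vector after Ad-Cre, a comparison that shares the EV-Cre libraries with the Ad-Cre effect in EV. In WT-Cre 6 of the 9 genes without Egln3 were lower than in EV-Cre, where 3.48% of genes were called lower and 3.89% higher: Egln1, Vegfa, Slc2a1, Hk2, Pdk1 and Ankrd37. With only those 2 groups in the fit, Slc2a1 and Ankrd37 were called, where 165 of 13251 genes were called lower and 2.8% either way. The log2 fold change was -2.47 for Ankrd37 (SE 0.32, adjusted p = 0.00093, edgeR), -1.80 for Slc2a1 (SE 0.46, adjusted p = 0.0317, edgeR) and -1.67 for Vegfa (SE 0.47, adjusted p = 0.046, edgeR). Ankrd37 alone kept its call whichever of the 4 libraries was left out, in fits that left 1 library in a group and called fewer of all genes. With the block 8 of 9 were lower, all but Ldha, where 11.9% of genes were called lower. Ldha, at -0.30 with the block, missed only the threshold on size (adjusted p = 0.0235, edgeR). In the fit without the block the 3 genes not called were Ldha, at -0.30 (SE 0.22, adjusted p = 0.461, edgeR), Pgk1, at -0.63 (SE 0.30, adjusted p = 0.218, edgeR), and Bnip3, at -1.11 (SE 0.41, adjusted p = 0.122, edgeR).

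MT194-Cre and DMT-Cre were compared with the same EV-Cre libraries. In MT194-Cre only Hk2 of the 9 genes was lower, by a log2 fold change of -0.68 (SE 0.11, adjusted p = 0.0363, edgeR), where 0.145% of genes were called lower. The call ended when any 1 of the 4 libraries was left out, with log2 fold changes from -0.71 to -0.64. Those fits left 1 library in a group and called fewer of all genes too. With the block 8 of 9 were lower in MT194-Cre, again all but Ldha, where 3.09% of genes were called lower. In DMT-Cre 0 of 9 differed from EV-Cre, where 0.00724% of genes were called either way, which is Nelfb alone. There 0 of 9 had an unadjusted p under 0.05 in edgeR, against 447 of 13805 genes. DESeq2 called 0 of 9, where it called 0.0507% of all genes. The log2 fold changes of DMT-Cre against EV-Cre ran from -0.34 for Vegfa (SE 0.45) to -0.01 for Ldha (SE 0.22), and those intervals leave room for differences in either direction. For MT486-Cre against EV-Cre, the contrast behind the choice, the values are a description and no member is counted as called; 0.181% of all genes were called lower. Beside Egln3 the log2 fold changes ran from -1.40 for Ankrd37 and -1.21 for Slc2a1 to -0.44 for Hk2 and -0.28 for Ldha.

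Whether the Ad-Cre effect itself differed from that in EV was tested as an interaction. For WT, Ankrd37 alone of the 9 genes differed, with a log2 difference of -2.45 (SE 0.46, adjusted p = 0.0319, edgeR), where 0.283% of genes were called lower. This call was lost when any 1 of the 8 libraries was left out or only the 4 groups concerned were fitted. Each of those fits called fewer of all genes as well. With the block, the WT effect was smaller than the EV effect for 7 of 9, all but Pgk1 and Ldha, where 6.17% of genes were called lower. For MT194 0 of 9 were called, where 0.00724% of genes were, and with the block Vegfa and Hk2 were lower, where 0.522% were. Without the block 1 of 9 had an unadjusted p under 0.05 in edgeR, against 444 of 13805 genes. DESeq2 called 0 of 9, where it called 0.138% of all genes. For MT486 the difference contains the contrast behind the choice, so its values are a description and no member is counted: apart from Egln3 the log2 differences ran from -1.24 for Slc2a1 and -1.12 for Vegfa to -0.11 for Ldha, and 0.00724% of all genes were called. For DMT 0 of 9 were called with or without the block, where 0.00724% of genes were in either fit. Without the block 0 of 9 had an unadjusted p under 0.05 in edgeR, against 159 of 13805 genes. DESeq2 called 0 of 9, where it called 0.00724% of all genes. The blocked differences ran from -0.51 for Ankrd37 to 0.10 for Ldha.

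In the parallel cultures that received Ad-GFP in place of Ad-Cre, no difference between constructs was detectable for these genes by the test. None of the 10 differed from EV-GFP in WT-GFP, MT194-GFP, MT486-GFP or DMT-GFP, where 0, 0, 0.00724% and 0 of all genes were called either way by edgeR. At an unadjusted p under 0.05 in edgeR there was 1 (Egln3 in MT486-GFP), against 84, 276, 252 and 175 of 13805 genes in the same order. DESeq2 called 0 of the 10, where it called 0.00724%, 0.0362%, 0.0724% and 0.0217% of all genes. Apart from Egln3, the log2 fold changes of these 4 comparisons lay between -0.39 for Ankrd37 in MT486-GFP and 0.22 for Ankrd37 in DMT-GFP. Egln3 was 0.247 and 0.171 CPM in MT486-GFP, the lowest of the Ad-GFP groups, and its log2 fold change of -1.57 relative to EV-GFP rests on few reads (adjusted p = 1, edgeR).

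Per kilobase of exon, which allows levels to be set side by side between genes, Ldha stood highest in EV-GFP at 142.7 CPM per kilobase, followed by Vegfa at 84.7, Slc2a1 at 24.9 and Egln1 at 21.9. Bnip3 had 18.3, Hk2 12.7, Pdk1 8.35 and Pgk1 7.81 CPM per kilobase. Ankrd37, at 1.06, and Egln3, at 0.239 CPM per kilobase, were by far the scarcest of the 10. Ldha and Pgk1, at the opposite ends of the glycolytic members, each have 2 pseudogenes named after them. Gapdh had 4.77 ± 2.50 CPM (SD, n = 2) in EV-GFP and Eno1 0.0492 and 0 CPM, although every cell uses both enzymes, so levels of glycolytic genes in the tables are uncertain as a measure of their abundance. The part of the mapping filter and of gene copies was not tested.

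The other genes of the pathway were read from lists. Of 34 other HIF targets tested, 8 rose and 1 fell in EV after Ad-Cre, where 5.84% of all genes were called higher and 5.94% lower, and the median change was 0.52 on the log2 scale. Among those that rose was Ero1l, an oxidase of the endoplasmic reticulum, from 47.4 to 299 CPM on average (log2 fold change 2.66, SE 0.48, adjusted p = 0.00329, edgeR). The single fall was that of Ppp1r3c, a glycogen-targeting subunit (-1.56, SE 0.31, adjusted p = 0.00518, edgeR). In DMT 6 rose and 1 fell, where 4.58% of all genes were called higher and 5.34% lower, with Ero1l at 2.37 and Ppp1r3c again the fall at -1.40. In MT194 4 rose, where 1.88% of all genes were called higher, among them Ak4, Fam162a and Higd1a by 1.29, 1.21 and 0.98. In MT486 3 rose, where 1.14% were called higher, among them Ak4 and Fam162a by 1.39 and 0.89, while Ppp1r3c fell, where 1.28% were called lower. In WT 0 of 34 passed the test, where 0.0217% of all genes were called either way, so this count says nothing particular of the list.

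**Figure D3:**
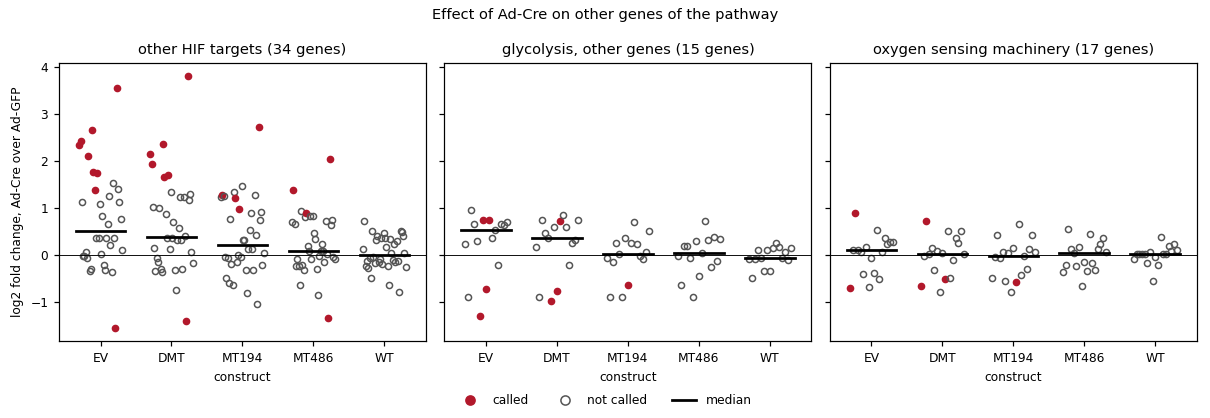
Log2 fold change of Ad-Cre over Ad-GFP (vertical axis) for 34 other HIF targets, 15 other genes of glycolysis and 17 genes of the oxygen sensing machinery with each construct, filled where called, with a bar for the median. The medians of the HIF targets run from 0.52 in EV to -0.01 in WT.

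Of 15 other genes of glycolysis tested in EV, 11 had a log2 fold change above 0 and 4 below, with a median of 0.54, and 2 were called higher and 2 lower, where 5.84% of all genes were called higher and 5.94% lower. Pfkl and Pfkp rose by log2 fold changes of 0.74 each, while Pfkm and Ldhb fell, by -0.73 (SE 0.10, adjusted p = 0.000663, edgeR) and -1.30 (SE 0.29, adjusted p = 0.0103, edgeR). Pfkl, Pfkp and Pfkm are the liver, platelet and muscle forms of phosphofructokinase, so forms of the same enzyme were called in opposite directions, and so did the lactate dehydrogenase subunits Ldha and Ldhb. In DMT, again with 11 above 0 and 4 below and a median of 0.37, Pfkp rose and Pfkm and Ldhb fell, where 4.58% of all genes were called higher and 5.34% lower. In MT194 Pfkm fell, where 2.33% of all genes were called lower. None passed the test in MT486 or WT, where 2.42% and 0.0217% of all genes were called either way. Of 17 genes of the oxygen sensing machinery 1 rose and 1 fell in EV, shares near the 5.84% and 5.94% of all genes, so the counts say nothing particular of the list. Cited2, a HIF target that competes for the coactivator p300, rose by 0.89 in EV, and Arnt, the partner of the α subunits, fell by 0.70 (SE 0.14, adjusted p = 0.00656, edgeR). Hif1a itself had 1175 ± 310 CPM in EV-Cre and 1226 ± 224 CPM in EV-GFP (SD, n = 2), a log2 fold change of -0.06 (SE 0.27, adjusted p = 0.923, edgeR). In DMT Cited2 rose and Arnt and Hif1an, the asparaginyl hydroxylase, fell, where 4.58% of all genes were called higher and 5.34% lower, and in MT194 Hif1an alone fell, where 2.33% were called lower.

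Around pyruvate dehydrogenase, 12 genes were tested beside Pdk1, of which 1 rose and 1 fell in EV, near the 5.84% and 5.94% of all genes. In EV the kinase Pdk4 rose by a log2 fold change of 0.68 (SE 0.19, adjusted p = 0.0352, edgeR) and the opposing phosphatase Pdp2 fell by 1.03 (SE 0.16, adjusted p = 0.00124, edgeR), and Pdp2 was also called lower in DMT and MT486, as 1 of 12 where 5.34% and 1.28% of all genes were. Of 8 VEGF ligands and receptors in EV, against the same shares of all genes, Pgf rose while Vegfb and Nrp2 fell, Nrp2 from 45.4 to 9.66 CPM on average, and in DMT Vegfb and Nrp2 fell, where 5.34% of all genes were called lower. None of 6 mitophagy genes passed the test with any construct, where from 0.0217% (WT) to 11.8% (EV) of all genes were called either way. Among the cell type lists, the fibroblast marker S100a4 fell in EV from 52.2 to 18.9 CPM on average (log2 fold change -1.47, SE 0.24, adjusted p = 0.00171, edgeR) and in DMT, 9 other fibroblast markers tested did not pass the test in either, and of the epithelial, endothelial and leukocyte lists only 1 marker each was abundant enough to test, none of which passed. Of all genes, 5.94% were called lower in EV and 5.34% in DMT. S100a4 was also called higher in WT-Cre and in MT486-Cre than in EV-Cre, where 3.89% and 0.181% of all genes were. It was called higher in the WT minus EV interaction too, where 0.398% were. The summed leukocyte list was 4.10 and 5.60 CPM in EV-Cre and 2.21 and 3.998 CPM in EV-GFP, and its part in the results was not tested.

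**Figure D4:**
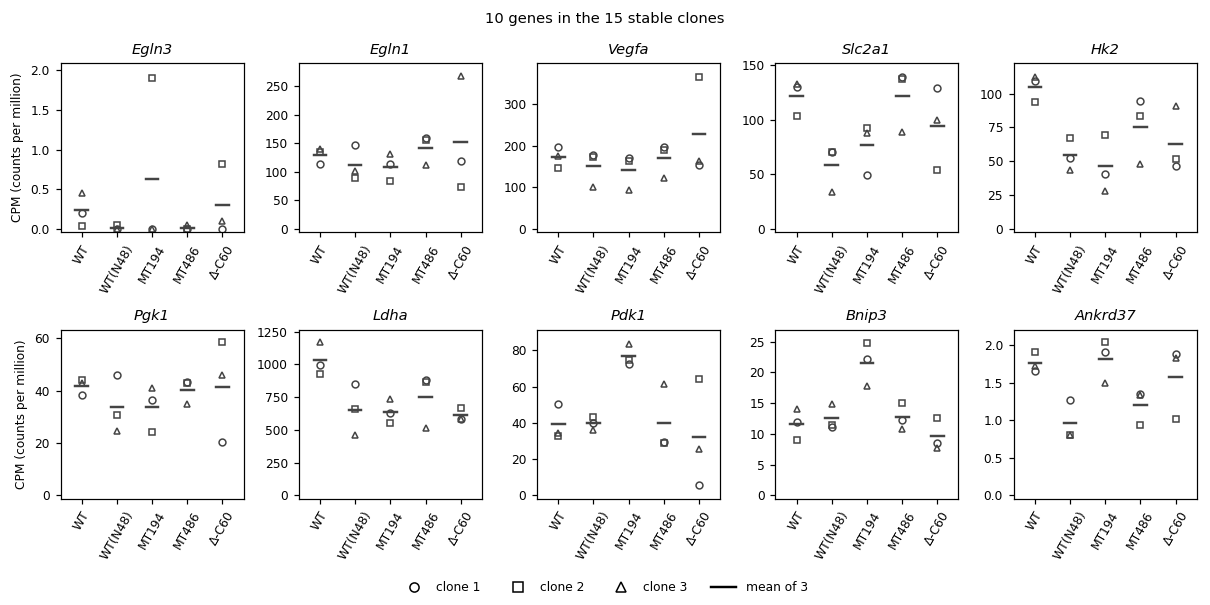
Level of each of the 10 genes in CPM (vertical axes, linear, from 0) in the 15 stable clones, with a symbol for each clone and a bar for the mean of 3. Egln3 is at or near 0 in most clones and reaches 1.90 CPM in MT194 clone 2, while Pdk1 and Bnip3 are highest in the 3 MT194 clones.

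In the stable clones none of the 10 genes passed the edgeR test in any of 5 comparisons. At an unadjusted p under 0.05 there were 3 for MT194 against WT, 4 for WT(N48) against WT, 2 for MT486 against MT194 and 0 for the others. Of all 13223 genes, 2796, 2775 and 2473 reached it in the first 3. For MT486 against WT 1176 did, and for Δ-C60 against WT(N48) 1540. DESeq2 called 2, 1, 0 and 0 of the 10. It called 8.85%, 8.84% and 6.05% of all genes in the first 3 comparisons, 1.19% for MT486 against WT and 1.66% for Δ-C60 against WT(N48). The background of the edgeR calls was 2.90% of 13223 genes called either way for MT194 against WT, 2.10% for WT(N48) against WT and 0.348% for MT486 against MT194. It was 0 for both MT486 against WT and Δ-C60 against WT(N48). With WT clone 2 standing alone for the WT clones, the lone library was assumed to vary like the other groups. The fits of the 3 comparisons concerned then called next to no gene, so the lack of a call for the 10 genes says nothing particular of them. Egln3 was nearly silent: it had 4, 1 and 9 reads in WT clones 1 to 3, 0, 0 and 1 in the MT486 clones, 0, 1 and 0 in the WT(N48) clones, 0, 40 and 0 in the MT194 clones and 0, 22 and 2 in the Δ-C60 clones. The spread was thus between single clones of a group, so no fold is given.

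Some members had groups of clones that did not overlap, without passing the test. Pdk1 was 72.4, 74.4 and 83.2 CPM in the MT194 clones and 50.2, 32.8 and 34.5 CPM in the WT clones, a log2 fold change of 0.97 (SE 0.57, adjusted p = 0.358, edgeR). Bnip3 was 22.1, 24.8 and 17.7 CPM in the MT194 clones and 12.0, 9.003 and 14.0 CPM in the WT clones (0.89, SE 0.25, adjusted p = 0.0724, edgeR). Hk2 went the other way, with 40.7, 69.3 and 28.4 CPM in the MT194 clones against 109, 93.5 and 112 CPM in the WT clones (-1.19, SE 0.35, adjusted p = 0.0797, edgeR). These 3 genes, with Slc2a1 and Ldha, which were both lower in every MT194 clone than in any WT clone, are the 5 of 10 whose groups did not overlap, where 33.6% of all genes tested did not overlap either, and Hk2 and Bnip3 were called by DESeq2. Clones of other groups lay below the WT clones too: all 3 WT(N48) clones were also below all 3 WT clones for Slc2a1 (70.6, 70.6 and 33.8 CPM against 129.7, 103 and 132.7 CPM), Hk2 (52.2, 67.2 and 43.7 CPM), Ldha and Ankrd37. The Δ-C60 clones, at 46.7, 51.4 and 90.7 CPM, were below the WT clones for Hk2 as well. For Ankrd37 the MT486 clones, at 0.936 to 1.35 CPM, were below the WT clones, at 1.65 CPM or more. WT clones 1 and 3 are the libraries of uncertain identity. For Ldha the WT clones, at 929 CPM or more, stood above every clone of the other 4 groups, which reached at most 879 CPM. The share of all genes without overlap is given here for MT194 against WT only. The separations of the other groups therefore have no background beside them and are a description. Pdk1 varied most within a group in Δ-C60, at 5.98, 64.0 and 25.8 CPM.

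Across the 20 populations, the log2 CPM of Egln3 correlated best with that of Hmox1, a heme oxygenase of the oxidative stress response (Pearson's r = 0.92), then with Pdk1 (0.90), Gadd45b, Trib3 and Nek9 (0.89 each), among 11484 genes with a mean of at least 50 reads. Its r with the other members ran from 0.53 for Vegfa to 0.90 for Pdk1. These points share experiments, viruses and constructs, so the values are a description. Across the 15 clones the 5 genes most like Egln3 were Nufip2, Ctsl, Fam222b, Tmem199 and Ahsa2, at 0.81 to 0.77, and its r with Egln1 was -0.43, against 0.86 in the populations. Egln3 was at or near 0 in most clones and highest in MT194 clone 2 and Δ-C60 clone 2, with 40 and 22 reads. The clone values therefore rest on few libraries and do not show a change of relation.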

How the data were processed

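RNA from 35 cultures was sequenced as 50 bp single reads from poly(A)-selected, stranded libraries. The deposited values are raw read counts per gene, which the authors made with Bowtie2 (mm10 genome) and HTSeq after dropping reads whose mapping quality was under 30. Tool versions, the gene annotation and the strand setting are not given in the sources used here. Reads without a gene were 9.14% to 21.3% of each library and stayed out of all totals.

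Populations (20 libraries) and clones (15) were fitted separately in edgeR 4.0.16 (R 4.3.3) with TMM normalization, its low-count filter, 1 mean per group and robust quasi-likelihood tests, and p-values were adjusted over all 13805 or 13223 genes. A call needed an adjusted p under 0.05 and a log2 fold change over 0.5 in size. The scripts were tested on simulated data. Replicate numbers paired the populations, since the libraries came from independent experiments and all 45 pairs of groups had deviations that correlated by over 0.1 (0.42 to 0.73). Alternatives were DESeq2 1.42.0, its size factors, no filter, other thresholds, the groups compared alone, the block and each library left out.

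The 10 genes and all lists were chosen with earlier results of these data known. Named list genes are all those called where at most 4 were, and otherwise the largest changes with a mean of at least 50 reads. Genes like Egln3 were the 5 with the highest correlation of the log2 CPM of edgeR with its default prior count. Differences within a replicate number used log2(CPM + 0.1). The values of 1 list gene that this rule names are not reported here.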

Additional observations from a re-analysis of the deposited data

Results flagged for a closer look

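The Ad-Cre effect on Ankrd37 differed between the WT and EV constructs by a test of the difference itself. The interaction was -2.45 on the log2 scale (SE 0.46, adjusted p = 0.0319 by edgeR's fit across all genes, with 2 libraries in each of the 4 groups), since Ankrd37 went from 1.28 and 2.00 CPM to 6.13 and 8.99 CPM with EV and from 1.29 and 1.93 CPM to 1.16 and 1.57 CPM with WT. It was called in 6 of 15 alternatives, where its adjusted p ran from 0.000244 to 0.162.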

How the results depend on the processing

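No call changed direction under any alternative. Of 23 member results with a call, 257 alternative values kept it in 165 cases and lost it in 92, and of 169 without a call, 2084 alternative values gained one in 42. Requiring an absolute log2 fold change over 1 left 4 members called in EV, 4 in DMT, 3 in WT-Cre against EV-Cre and 0 in MT194-Cre against EV-Cre, and fitting without a filter on low counts also left 0 in the last. Of all genes 6.52%, 5.31%, 4.05% and 0.174% were called there, and 0.139% in the last without the filter. Fitting the compared groups alone called 1 in EV, 0 in MT194, 4 in DMT, 2 in WT-Cre and 0 in MT194-Cre against EV-Cre, 0 for WT minus EV, 1 (Pdk1) for MT194 against WT clones and 1 (Hk2) for WT(N48) against WT clones. Of all genes those fits called, in the same order, 1.8%, 0, 3.63%, 2.8%, 0, 0.0742%, 4.28% and 4.56%. Where no gene at all was called, the 0 says nothing particular of the members. DESeq2 called 3 in MT194, 2 in MT486, 2 for WT minus EV, 2 (Hk2 and Bnip3) for MT194 against WT clones and 1 (Slc2a1) for WT(N48) against WT clones. Its shares of all genes were 6.53%, 4.95%, 3%, 8.85% and 8.84%. With the replicate number as a block, 5 were called in MT194, 5 in MT486, 8 in MT194-Cre against EV-Cre, 7 for WT minus EV and 2 for MT194 minus EV. The blocked shares of all genes called either way were 14.5%, 12.1%, 6.22%, 13.4% and 0.978%. The test planned for MT486 minus EV, and its alternatives, were dropped after the data were seen because it contains the contrast that chose the genes. Leaving out 1 population library left 1 in its group, so members called in those fits are not counted here. Each such fit with a member call to lose also called fewer of all genes than the main fit. No member stayed called in MT194, in MT194-Cre against EV-Cre or for WT minus EV. With so few genes called at all, that says nothing particular of the members. A fit on fewer libraries has fewer degrees of freedom; the cause of the other changes was not tested.

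The clones share only replicate numbers: of 30 pairs of same-numbered libraries from different groups, 3 had deviations correlated by over 0.1. With that number as a block, the genes called for MT194 against WT clones went from 384 to 52 and those for WT(N48) against WT clones from 278 to 102, and 0 members were called. Groups of 2 limit the populations, and the Egln3 counts of 0 to 40 reads limit any comparison of that gene between clones.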
